A study of Penicillium oxalicum with 72 samples.

Results

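The genes described here are 150 genes of *Penicillium oxalicum* whose mRNA level was lower at 48 h than at 4 h after a change of medium, whatever carbon source the new medium held. They were chosen from measured values. For each gene, the mean FPKM (fragments mapped to a gene, scaled to transcript length and to the mapped fragments of the library) of the 3 replicates was taken at 4 h and at 48 h in each of 6 media, and log2((FPKM at 4 h + 1)/(FPKM at 48 h + 1)) was calculated for each medium. The lowest of the 6 values is called the score of the gene, and the 150 genes with the highest score are the members. Genes of the study's published lists of carbohydrate-active enzymes (CAZymes), transporters, transcription factors (TFs), receptors and co-expression modules were left out beforehand, so that 8690 of the 9821 genes listed in the data could be chosen.

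All cultures were of strain Δ*PoxKu70*, a derivative of the wild-type strain HP7-1 that lacks the *PoxKu70* gene of non-homologous end joining. This deletion is shared by every group, and libraries of the parental strain were not analysed here. Hyphae grown in advance on glucose (GLU) were moved to a basic medium with 1% (w/v) of 1 of 5 carbon sources, or with no carbon source (NC). The carbon sources were Avicel (AV, microcrystalline cellulose), wheat bran (WB), methyl cellulose (MC), hydroxyethyl cellulose (HEC) and GLU. Mycelium was harvested 4, 12, 24 and 48 h after the transfer, with 3 libraries, described as biological replicates, for each of the 24 conditions. A library is mRNA of whole mycelium, so that fewer cells of a kind and less mRNA per cell cannot be told apart.

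Fungal hyphae moved to a new medium first use the nutrients and reserves they bring along and then depend on what they can release from the substrate. Glucose enters the cell directly and represses many genes for the use of other carbon sources, whereas cellulose and its derivatives have to be cut by secreted cellulases, and WB holds starch, hemicellulose and some free sugar beside cellulose. Cultures that run out of carbon slow their growth, reuse their own material and may form conidia. The tricarboxylic acid (TCA) cycle, to which the annotated members belong, oxidises acetyl-CoA in the mitochondria. Citrate synthase carries out its entry step, and the oxoglutarate dehydrogenase complex a later oxidative step.

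Most members have only an identifier (POX and a number). A function was given to 3 members in the text of the study, the citrate synthases POX01075 and POX04356 and the oxoglutarate dehydrogenase POX09663. No function is stated for the others, since the reference gene table uses other identifiers.

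Each library listed 9243–9568 genes, with total FPKM from 924393 to 1255914 (median 995771). Of the 150 members, 144 were listed in all 72 libraries, and 147 reached a mean of 1 FPKM over all libraries, the minimum for a test. The short names in the labels set the conditions, but other words of the labels go against them in 2 places. All 12 HEC libraries are also worded as methyl cellulose, and the full title of replicate 3 of NC at 24 h gives another time, 4 h. This NC library lay beside its replicates, with members making up 2.31% of the summed FPKM, against 2.33% and 1.99% in the other two. Replicate 1 of AV at 12 h stood somewhat apart, with 5.04% of the FPKM in members against 5.95% and 6.68%. In replicate 3 of WB at 12 h the members' median, 7.06 as log2(FPKM + 1), was above the 6.63 and 6.63 of its replicates, and leaving it out or any other WB library gave 37–40 members called over time on WB, where all libraries gave 37.

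The members were abundant mRNAs shortly after the transfer. Their mean FPKM over the 4 h libraries ranged from 0.992 to 7238 (median 248), and over the 48 h libraries from 0.0706 to 2755 (median 51.0). Together they took up 6.37–9.51% of all FPKM in the 4 h libraries (median 8.23%) and 1.298–3.17% at 48 h (median 2.07%). These values chose the members and are given without a test. In the libraries that the choice did not use, the members took up 3.32–6.68% at 12 h (median 5.12%) and 1.99–3.71% at 24 h (median 3.01%). In each of the 6 media, every 12 h library was above every 24 h library of the same medium. NC had the lowest mean share at each of the 4 times, with 6.46 ± 0.139%, 3.43 ± 0.133%, 2.21 ± 0.194% and 1.46 ± 0.146% (SD, n = 3) at 4, 12, 24 and 48 h. The plot of median levels by library shows the same course on the log2 scale.

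**Figure D1:**
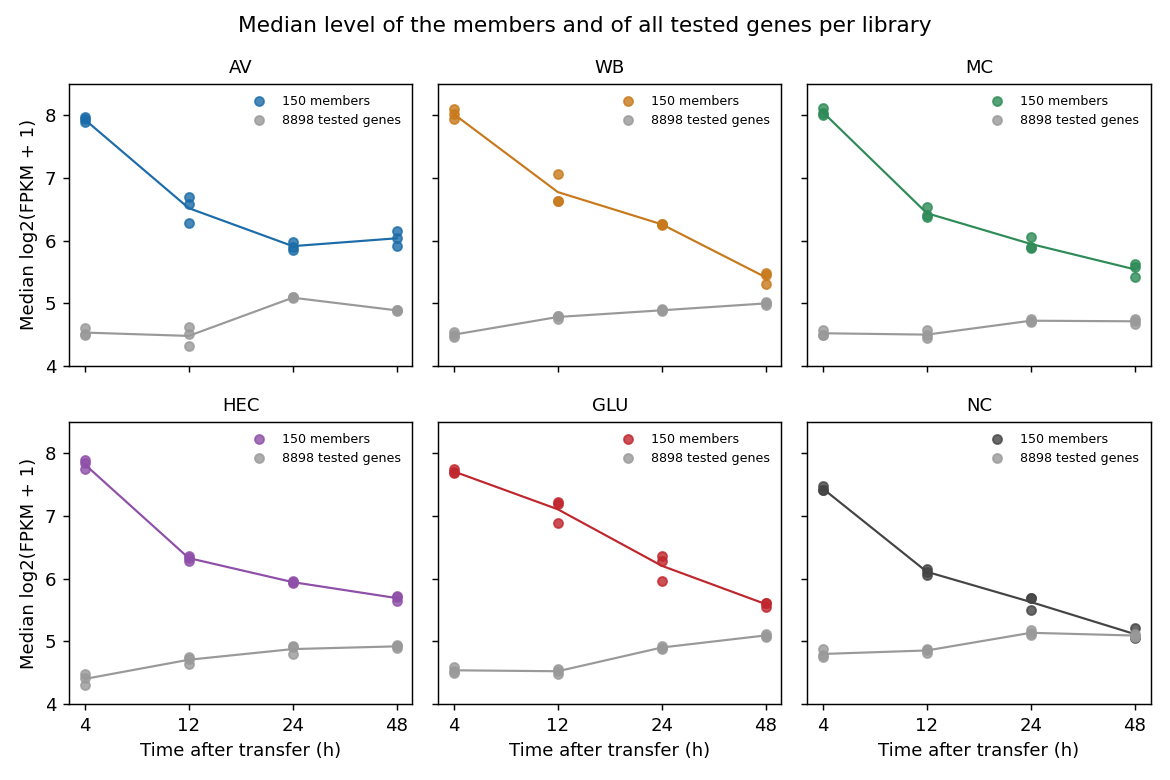
Median log2(FPKM + 1) of the 150 members (coloured) and of the 8898 tested genes (grey) in each library against time after transfer, drawn at equal steps, 1 panel for each medium; points are libraries and lines join the means of 3. The members' median fell from 7.42–8.11 at 4 h to 5.06–6.15 at 48 h, while the mean of the all-gene median lay between 4.40 and 5.14 in every condition.

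The 12 genes for conidiation and spore pigment that the study names, among them *BrlA* and *AbaA*, the central regulators of conidiation, and *AygA* and *AbrA* of pigment synthesis, summed to 136–284 FPKM at 4 h, 214–20723 FPKM at 12 h, 249–9587 FPKM at 24 h and 7562–27767 FPKM at 48 h. Most of the later sums came from ArpA-like and ArpB-like, with medians of 6563 and 4701 FPKM at 48 h. On NC the sums went from 13238–20723 FPKM at 12 h to 6637–7406 at 24 h, and *FlbD*, an upstream regulator of *BrlA*, was higher at 4 h than at 48 h on GLU. *BrlA* had a median of 0.965 FPKM at 4 h and 106 FPKM at 48 h. Only *ArpA* and ArpB-like of pigment synthesis were listed at 0, each in 1 library. *BrlA*, *AbaA*, *FlbD*, *AygA* and *AbrA* are in the published lists left out beforehand, so they could not be members. None of the others of the 12 is a member. Between 12 and 24 h, limma called 8 of the 12 higher on MC, 6 on WB, 4 each on AV, HEC and NC and 0 on GLU, where 5 were higher and 1 lower at an unadjusted *p* within 0.05, while 2 were called lower on NC and 1 on MC. Of all genes, 7.19% were called higher on MC, 10.6% on WB, 24.8% on AV, 6.6% on HEC, 8.68% on NC and 11.4% on GLU, and on AV the list's median log2 difference, 0.62, was near the 0.58 of all genes. The part of conidiation in the results below was not tested.

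The score of the members ran from 0.67 to 5.43 (median 0.94, a smallest fall of 1.92-fold). It was at least 1 in 67 members and at least 2 in 14. A score above 0 was found for 696 of the 8690 genes, and for 1560 genes after the libraries were rescaled by the median of ratios, and the median score was −0.95. The medium with the smallest fall was AV for 40 members and GLU for 37, followed by HEC with 24, NC with 22, WB with 21 and MC with 6. The last members by score were POX06654, POX02749 and POX03239, and the next genes, POX08673, POX07980 and POX01910, scored 0.67, 0.66 and 0.66, so that no gap separates members from other genes.

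On every medium except GLU, the step between 4 and 12 h had the largest median fall. The median member changed by −0.96, −1.06, −0.97, −0.88, −0.52 and −1.05 on the log2 scale between 4 and 12 h on AV, WB, MC, HEC, GLU and NC. This first step was the largest for 73, 78, 84, 81, 66 and 96 members on these media, so GLU had the fewest and NC the most. Between 24 and 48 h the median member still went down by 0.55 on WB, 0.45 on MC, 0.42 on GLU, 0.31 on NC and 0.16 on HEC on the log2 scale, whereas on AV the median difference was 0.13. The median of all tested genes changed by 0.04, −0.02, 0.19, −0.05, 0.01 and −0.19 on these media in turn. A decrease at each of the 3 steps was seen in 92 members on MC, 83 on WB, 69 on HEC, 69 on GLU, 61 on NC and 28 on AV. Of all tested genes, 9.91%, 12.2%, 5.54%, 4.55%, 6.96% and 2.55% decreased at each step, in the same order, so AV had the lowest share there too. The steps that include 4 h or 48 h share libraries with the choice of members and are descriptions.

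The member with the highest score was POX07896. At 4 h its FPKM in the 3 replicates were 2939.6, 4044 and 2733 on AV. Those of WB were 2869, 4808 and 4434, and those of MC were 7618, 5642 and 12215. They were 8341, 6376 and 9221 on HEC, 1974, 2042 and 1899.6 on GLU, and 2938, 2620.5 and 2801 on NC. At 12 h no library on AV, WB, MC, HEC or NC was above 46.9 FPKM, and at 48 h no library of any medium was above 94.3. POX07896 was thus among the most abundant members at 4 h, and on all media but GLU its level at 12 h was far below that.

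The other members among the 10 with the highest score fell into different patterns. POX09677 was highest at 4 h on WB, with 2961 ± 608 FPKM (SD, n = 3), and on GLU, with 1198 ± 120, while the other media had means of 54.1–161. POX06901 peaked on WB at 1945 ± 48.4 FPKM at 4 h, but on AV it was still at 817 ± 160 FPKM at 12 h and at 37.2 ± 11.1 at 24 h. POX09284 was the opposite with regard to GLU, at 43.7 ± 10.1 FPKM at 4 h on GLU and 1040–2590 on the other media. The same order was seen for POX02336, at 93.5 ± 7.69 FPKM at 4 h on GLU and 595–1642 elsewhere. POX06177 was highest on AV, at 1548 ± 531 FPKM, and on MC, at 1205 ± 572.

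Of the rest of these 10, POX00882 was highest at 4 h on GLU, with 597 ± 58.5 FPKM (SD, n = 3), and POX06086 on HEC, with 2972 ± 740, and on GLU, with 1979 ± 74.6. POX08849 and POX00397 were weaker genes with their highest 4 h level on WB, 269 ± 20.3 and 70.4 ± 6.44 FPKM. The highest means over all 4 h libraries were those of POX06820, POX07896, POX07532, POX08819 and POX01708. POX06820 remained abundant at 48 h, from 1517 ± 116 FPKM on NC to 4610 ± 202 on WB. POX07532 at 4 h spanned the widest range of these, from 197 ± 126 FPKM on NC to 14117 ± 2562 on WB.

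The fall was next tested between 12 and 24 h, in libraries that had no part in the choice of members. With limma on log2(FPKM + 1), a gene was called when its Benjamini-Hochberg adjusted *p* over the 8898 tested genes was at most 0.05 and its log2 difference at least 1 in size. On AV, 63 of the 147 tested members were called, where 30.5% of all tested genes were. Of these, 52 were lower at 24 h (35.4% of members), against 5.71% of all genes, and 11 were higher, against 24.8%. On WB, 35 members were lower and 2 higher, where 4.27% and 10.6% of all genes were. On MC, 41 members were called (10.3% of all genes), all of them lower, where 3.09% of all genes were, and 0 were higher, against 7.19%. In limma 11 members had a higher level at 24 h on MC, and 99 a lower one, with *p* before adjustment within 0.05. All genes were not counted at that threshold. With an adjusted *p* of at most 0.05 and any size of difference, 97 members were lower and 8 higher on MC. Of the 8898 tested genes, 1403 were lower and 2964 higher by the same limma threshold.

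On HEC, 33 members were lower (22.4%) and 1 higher, against 2.08% and 6.6% of all genes. On GLU the counts were 55 (37.4%) and 7, against 3.97% and 11.4%, and on NC 29 (19.7%) and 2, against 2.32% and 8.68%, which is 31 in all, against 11%. For AV, WB, MC, HEC, GLU and NC in turn, the median member differed by −0.66, −0.47, −0.55, −0.52, −0.67 and −0.42 on the log2 scale, and the median of all genes by 0.58, 0.09, 0.16, 0.11, 0.34 and 0.23. Rescaling the libraries by the median of ratios shifted the all-gene median by −0.55, −0.07, −0.14, −0.10, −0.34 and −0.20 in the same order, and the members' median was then −1.24, −0.54, −0.71, −0.62, −1.04 and −0.61. Without replicate 1 of AV at 12 h, 78 members were called on AV instead of 63, and without replicate 3 of NC at 24 h, 32 instead of 31 on NC.

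**Figure D2:**
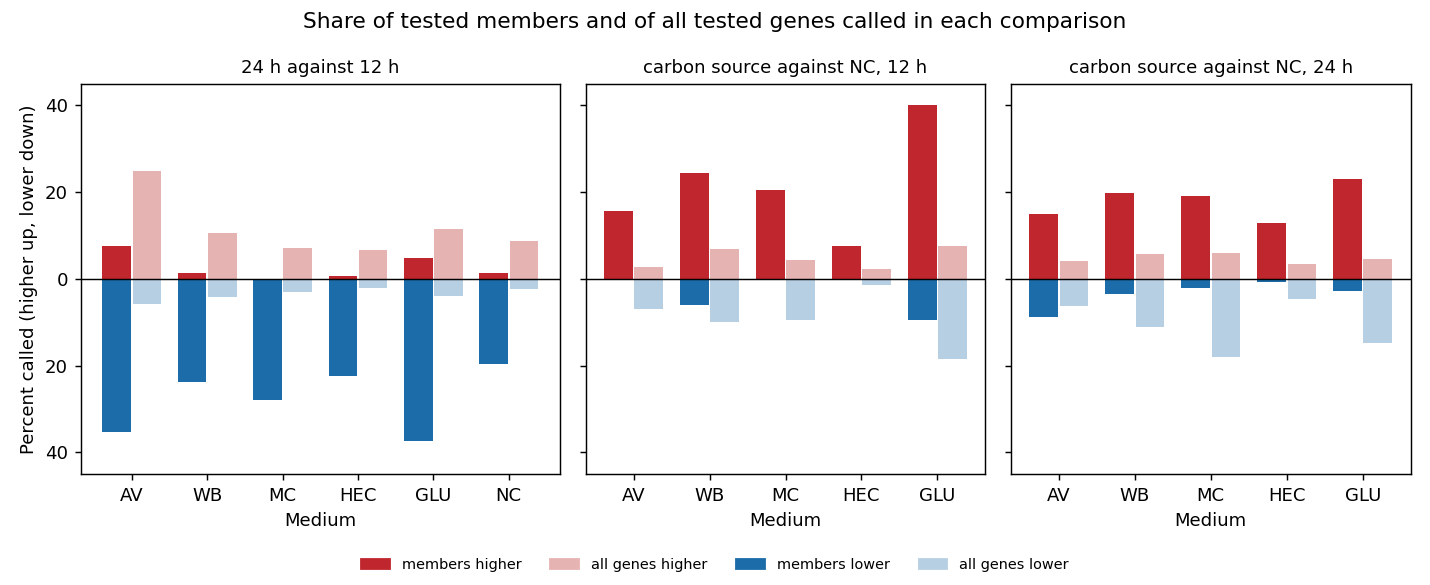
Percent of the 147 tested members (dark bars) and of the 8898 tested genes (pale bars) called higher (upward) or lower (downward) by limma between 12 and 24 h in each medium and on each carbon source against NC at 12 h and 24 h. Members were called lower at 24 h more often than higher in every medium, from 19.7% on NC to 37.4% on GLU, and called higher than on NC most often on GLU at 12 h, 40.1%.

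Members differed in how many media showed this later fall. A called fall on at least 1 medium was found in 103 of the 147 members, against 13.9% of all tested genes, and on at least 3 media in 43, against 2.12%. A called rise on at least 1 medium was found in 21 members, against 41.0% of all genes, and 15 members fell on 1 medium and rose on another, against 5.74%. In 38 members no medium gave a call, against 50.9% of all genes, which includes genes such as POX06820 and POX02749.

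POX03322 and POX08508 were called lower at 24 h in all 6 media, and were picked out after their values had been seen. POX08508 went from 586 ± 34.6 to 133 ± 44.7 FPKM (SD, n = 3) on GLU and from 135 ± 11.3 to 59.6 ± 2.63 on NC. Its log2 differences ran from −2.19 ± 0.26 (SE; limma adjusted *p* = 0.0024) on GLU to −1.06 ± 0.13 (limma adjusted *p* = 0.00034) on MC. POX03322, a weakly expressed gene, went from 15.5 ± 7.21 to 1.04 ± 0.160 FPKM on AV, with a log2 difference of −2.93 ± 0.31 (limma adjusted *p* = 0.00073).

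The falls with the greatest size on AV were those of POX07532 and POX00441. POX00441 stood at 382, 719 and 757 FPKM at 12 h on AV and at 9.59, 10.2 and 12.1 FPKM at 24 h, a log2 difference of −5.68 ± 0.27 (SE; limma adjusted *p* = 7.9e-05). All libraries of 24 h lay far below those of 12 h, and at 48 h POX00441 was back at 158 ± 20.8 FPKM on AV (SD, n = 3). On WB the same gene was at 245 ± 26.2 FPKM at 12 h and 309 ± 50.0 at 24 h. POX07532 went from 2057, 3111 and 3653 FPKM to 234, 16.7 and 20.3 FPKM on AV, a log2 difference of −6.004 ± 0.91 (limma adjusted *p* = 0.0019), with replicate 1 well above the other two at 24 h.

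On the cellulose ethers, POX00022 and POX02336 led the fall on MC, and POX02336 and POX00252 on HEC. POX02336 had 398, 297 and 297 FPKM at 12 h on MC and 46.7, 43.3 and 48.2 at 24 h, and 364, 368 and 527 against 31.3, 22.1 and 31.5 on HEC. The groups were far apart in both media, with log2 differences of −2.80 ± 0.12 (SE; limma adjusted *p* = 8.3e-07) on MC and −3.84 ± 0.19 (limma adjusted *p* = 2.1e-05) on HEC. POX02336 also led on NC, with 247, 315 and 235 FPKM at 12 h and 32.9, 33.98 and 36.5 at 24 h. This NC difference was −2.90 ± 0.12 on the log2 scale (limma adjusted *p* = 6.6e-06). POX00022 on MC went from 362, 365 and 489.7 FPKM to 35.99, 52.6 and 42.1, a log2 difference of −3.19 ± 0.16 (limma adjusted *p* = 2e-06), and POX00252 on HEC went from 602 ± 76.5 to 132 ± 22.8 FPKM (SD, n = 3).

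The largest falls on GLU were those of POX07896 and POX07842. POX07896 was still at 1770.1, 2547 and 2384 FPKM at 12 h on GLU, when NC had 21.4, 14.9 and 18.3, and it reached 34.8, 141 and 58.8 FPKM at 24 h. GLU was thus the only medium in which this gene kept its 4 h level to 12 h. The log2 difference between 24 and 12 h was −5.04 ± 0.47 (SE; limma adjusted *p* = 0.0014), and the difference between GLU and NC at 12 h was 6.86 ± 0.17 (limma adjusted *p* = 1.85e-07).

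POX07842 showed a similar delay on GLU, with 748, 752 and 741 FPKM at 12 h and 19.05, 82.6 and 26.1 at 24 h. On NC it had 5.72, 4.98 and 3.61 FPKM at 12 h, which was 7.04 ± 0.13 lower than on GLU on the log2 scale (SE; limma adjusted *p* = 1.5e-07). The fall on GLU to 24 h was −4.39 ± 0.49 (limma adjusted *p* = 0.0021). POX06086 had 1348, 1840 and 1654 FPKM at 12 h on GLU against 17.7, 16.3 and 25.3 on NC, and no other medium was above 25.3 in any library. It then fell to 180.2, 382 and 104 FPKM on GLU at 24 h, by 3.04 ± 0.44 on the log2 scale (limma adjusted *p* = 0.0034).

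POX07894, numbered close to POX07896, followed the same course at a lower level. It was at 129.9, 183 and 178 FPKM at 12 h on GLU, and at 7.53–15.3 FPKM in all libraries of the other 5 media at that time. At 24 h its GLU values, 13.2, 23.5 and 16.96 FPKM, overlapped those of NC, 24.0, 28.3 and 23.3. Its change between 12 and 24 h on GLU differed from that on NC by −3.87 ± 0.27 on the log2 scale (SE; limma interaction, adjusted *p* = 6.4e-06). The plot of these 4 members shows the red GLU points staying up at 12 h.

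**Figure D3:**
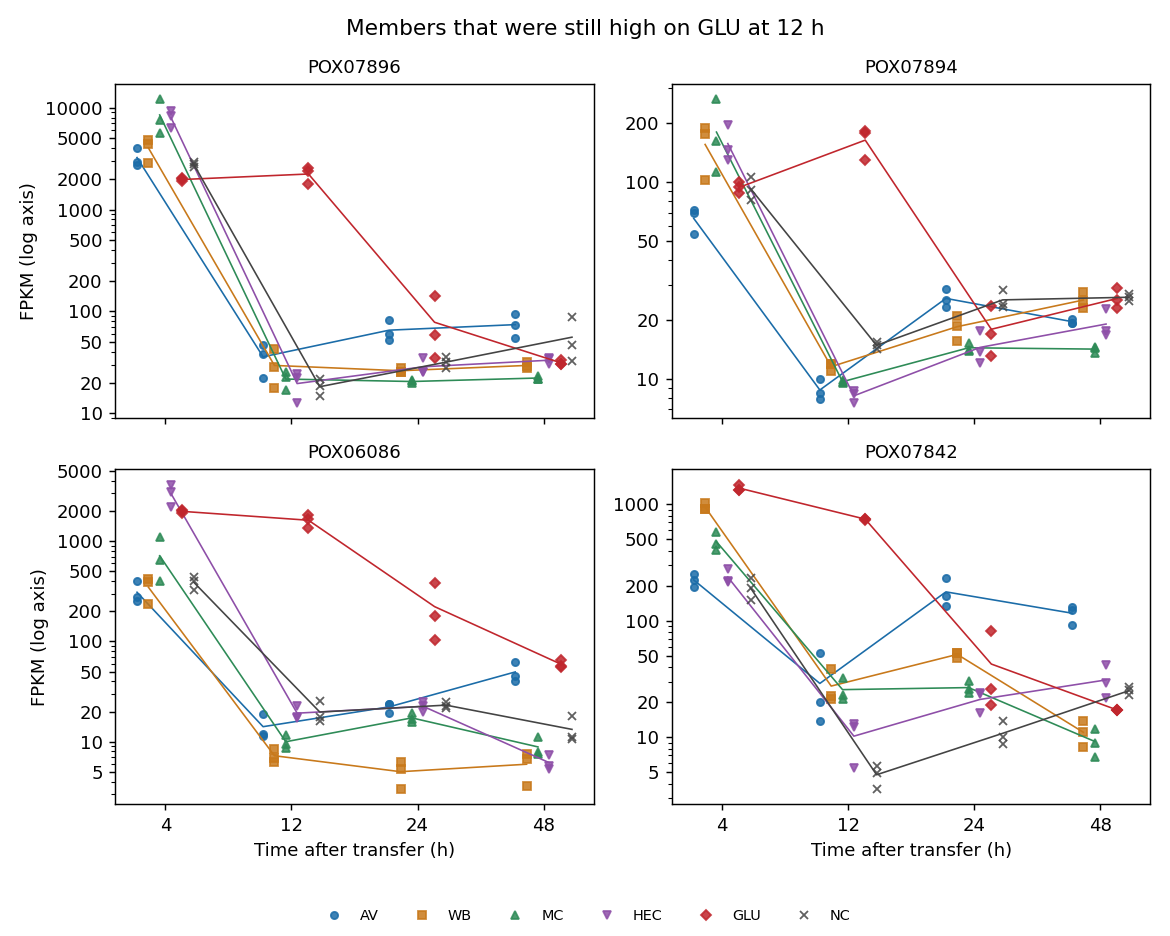
FPKM (log axis) of POX07896, POX07894, POX06086 and POX07842 in each library against time after transfer, drawn at equal steps; colours and symbols are media and lines join the means of 3 libraries. At 12 h the GLU libraries of POX07896 held 1770.1–2547 FPKM and those of the other media at most 46.9, and at 24 h the GLU level had dropped to 34.8–141.

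Comparison with NC at the same time showed which members differed in level between a carbon source and NC. These comparisons share their NC libraries at each time and are set side by side. At 12 h, 73 members differed between GLU and NC, where 25.9% of all tested genes did. Of these, 59 were higher on GLU (40.1% of members), against 7.48% of all genes, and 14 were lower, against 18.4%. On WB, 36 were higher, where 6.89% of all genes were, and 9 were lower, where 10% were. On MC, 30 were higher and 0 lower, against 4.45% and 9.53%, and on HEC 11 were called (3.78% of all genes), all of them higher, against 2.35% and 1.43% of all genes that were higher and lower.

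On AV at 12 h, 23 members were called (9.68% of all genes), 23 higher and 0 lower than on NC, against 2.78% and 6.9% of all genes. In limma, members were also counted with *p* before adjustment within 0.05 and any size of difference. Lower than on NC were then 9 members on AV, 20 on MC and 5 on HEC, and higher were 67, 82 and 73. All genes were not counted at this threshold. The AV count of 23 called members rested on single libraries. It was 43 without replicate 1 of AV at 12 h, 1 without replicate 2, 8 without replicate 1 of NC at 12 h, 1 without its replicate 2 and 8 without its replicate 3. The all-gene median was −0.36 on AV, −0.34 on MC, −0.31 on GLU, −0.16 on HEC and −0.07 on WB relative to NC at 12 h on the log2 scale, and rescaling brought it to between −0.01 and 0.01. At 24 h it was −0.06, −0.42, −0.18, −0.26 and −0.22 in the same order, with a members' median of 0.11, 0.15, 0.42, 0.17 and 0.34, and rescaled members' medians of 0.12, 0.57, 0.58, 0.43 and 0.55. At 12 h the members' median was 0.44, 0.40, 0.47, 0.35 and 0.57 as deposited and 0.83, 0.76, 0.80, 0.51 and 0.66 when rescaled, in the same order.

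With rescaled libraries the members called at 12 h were 46 on AV, 57 on MC and 20 on HEC, against 5.75%, 12% and 4.06% of all genes.

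At 24 h, 34 members were higher on GLU than on NC and 4 lower, against 4.69% and 14.7% of all genes. On WB, 29 were higher and 5 lower, against 5.78% and 11.1%, and on MC 28 were higher and 3 lower, against 5.95% and 18.1%. On AV, 22 were higher and 13 lower, against 4.1% and 6.23%, and on HEC 19 were higher and 1 lower, against 3.37% and 4.53%. With rescaled libraries 49 members were called on MC and 33 on HEC at 24 h, against 18.7% and 6.95% of all genes. Without replicate 3 of NC, whose labels disagree, the members called numbered 38, 36, 36, 33 and 22 for GLU, WB, MC, AV and HEC, where the full set gave 38, 34, 31, 35 and 20, against 19.4%, 16.8%, 24.1%, 10.3% and 7.9% of all genes. NC was the medium with the highest mean for 3 members at 12 h and 8 at 24 h, while GLU was the highest for 53 and 60. Of all genes, NC was highest for 33.8% and 31.03% and GLU for 18.7% and 20.7%.

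POX07383, POX07842 and POX06266 each led the higher members in more than 1 comparison with NC. POX07383 was higher than on NC on AV at 12 h (log2 difference 3.32 ± 0.43, SE; limma adjusted *p* = 0.0097), with 2299 ± 1076 against 230 ± 113 FPKM (SD, n = 3), and it led at 24 h on MC, with 1561 ± 199.7 against 99.5 ± 41.1 FPKM. It also led on WB at 24 h, with 643 ± 168 FPKM. POX06266 stood out on HEC, with 74.7 ± 6.83 FPKM at 12 h against 3.07 ± 0.891 on NC, a log2 difference of 4.23 ± 0.16 (limma adjusted *p* = 3.4e-05). At 24 h it was at 25.4 ± 5.68 FPKM on HEC against 1.997 ± 1.02 on NC. On MC at 12 h, POX08474 had 653 ± 92.9 FPKM against 75.7 ± 17.1 on NC.

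Lower levels than on NC were led by other genes. POX00023 on WB at 12 h had 45.1 ± 8.66 FPKM against 235 ± 48.7 on NC (SD, n = 3), and its neighbour in number POX00022 led on MC at 24 h, with 43.6 ± 8.42 against 276 ± 66.1 FPKM, and on HEC. POX09284 on GLU at 12 h had 9.44, 6.30 and 6.03 FPKM against 92.6, 48.0 and 30.3 on NC, with no overlap, a log2 difference of −2.69 ± 0.37 (SE; limma adjusted *p* = 0.00045). POX09786 was low on GLU at 24 h, with 3.56, 3.31 and 8.47 FPKM against 30.1, 22.6 and 15.5. POX06086, high on GLU, was the lowest on WB at 24 h relative to NC, with 5.34, 6.35 and 3.39 against 21.7, 22.9 and 24.9 FPKM.

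POX09674, POX09676 and POX09677 have nearly successive numbers and were all high on WB and GLU. POX09676 is outside the rule for named genes given below and was picked out with its values known. POX09677 had 3651, 2725 and 2506 FPKM at 4 h on WB, 374, 375 and 1011 at 12 h and 19.3, 20.1 and 9.68 at 24 h. On GLU it had 1335, 1162 and 660.4 FPKM at 12 h and still 362, 424 and 276 at 24 h. The libraries of NC at 12 h held 9.16, 8.59 and 7.73 FPKM. The WB level was 5.78 ± 0.35 above NC at 12 h on the log2 scale (SE; limma adjusted *p* = 9.1e-06) and fell by 4.98 ± 0.41 from 12 to 24 h (limma adjusted *p* = 2.6e-05).

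POX09676 had 73.4, 72.9 and 146 FPKM at 12 h on WB and 14.8, 12.4 and 9.74 at 24 h, a log2 difference of −2.83 ± 0.27 (SE; limma adjusted *p* = 5.6e-05). On GLU it went from 507, 448 and 276 FPKM to 39.7, 55.1 and 43.8. POX09674 had 31.98, 21.6 and 84.3 FPKM on WB at 12 h and 1.29, 1.73 and 0.71 at 24 h, a log2 difference of −4.18 ± 0.43 (limma adjusted *p* = 8.7e-05). On GLU its 12 h and 24 h values overlapped, 158, 110 and 77.8 against 67.3, 79.6 and 53.7 FPKM, so that at 24 h it was 4.69 ± 0.25 above NC on the log2 scale (limma adjusted *p* = 1.9e-05). Of the 3 genes, replicate 3 of NC at 4 h was above its replicates, with 126 FPKM of POX09677 against 16.8 and 19.8.

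**Figure D4:**
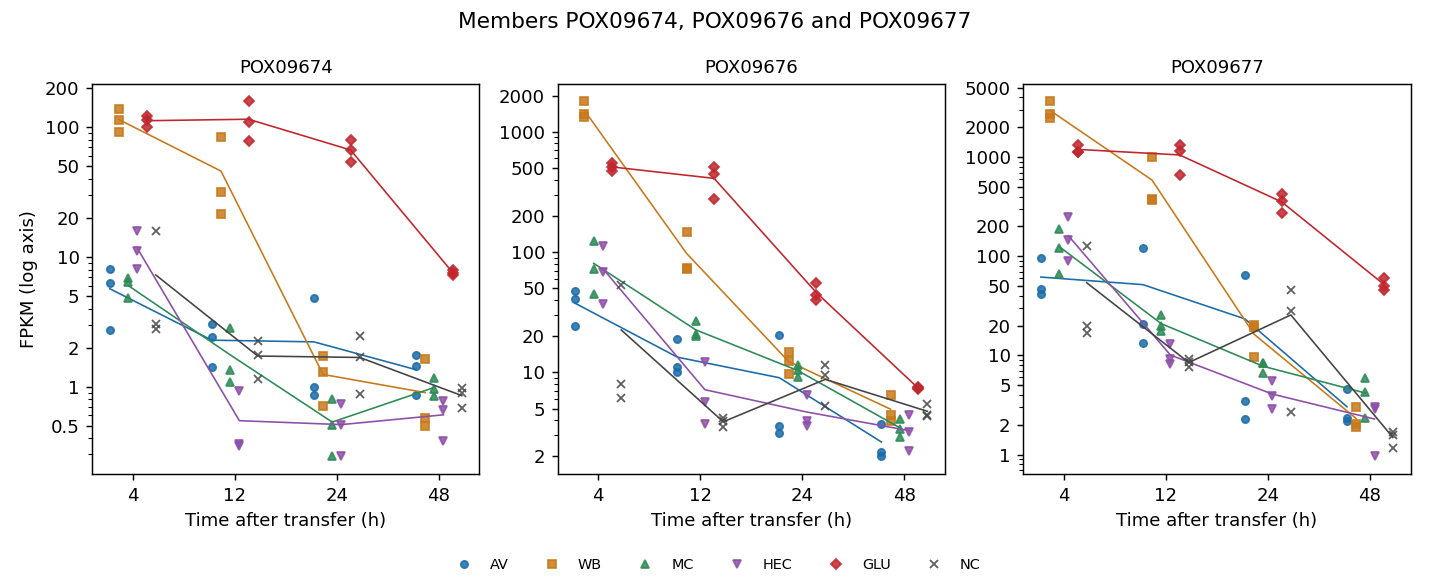
FPKM (log axis) of POX09674, POX09676 and POX09677 in each library against time after transfer, drawn at equal steps; colours and symbols are media and lines join the means of 3 libraries. WB and GLU libraries were above the other media at 4 h, and at 24 h POX09677 held 276–424 FPKM on GLU and 9.68–20.1 on WB.

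The 3 annotated members belong to the TCA cycle. Of the 6 TCA cycle genes that the text of the study names, 3 are members. Of the 6 genes of glycolysis named there (hexokinases, phosphofructokinase and pyruvate kinase), 0 are. These are the rate-limiting enzymes, only a part of the genes that the study annotates to these pathways. The isocitrate dehydrogenases POX06270 and POX09065, which act between citrate synthase and oxoglutarate dehydrogenase in the cycle, had scores of 0.06 and 0.12, and the other oxoglutarate dehydrogenase, POX00538, had −1.02. Among the 6 TCA genes, 3 were called lower at 24 h than at 12 h on AV, 1 on WB and 1 on NC, where 5.71%, 4.27% and 2.32% of all genes were, and 1 was called higher on GLU, where 11.4% were. All of these are members, apart from POX00538 on AV, with a log2 difference of −1.27. Of the 5 tested glycolysis genes, 2 were called lower on GLU and 1 on AV, where 3.97% and 5.71% of all genes were. A called rise was found in 1 glycolysis gene each on AV, MC, HEC and NC, where 24.8%, 7.19%, 6.6% and 8.68% of all genes rose. The pyruvate kinase POX02744 had a score of 0.21, above those of the isocitrate dehydrogenases.

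The citrate synthase POX01075 was the more abundant of the 2. It had 2006, 2718 and 3312 FPKM at 12 h on AV and 362, 382 and 431 at 24 h, a log2 difference of −2.74 ± 0.21 (SE; limma adjusted *p* = 0.00031). On NC it went from 1123, 1362 and 1249.8 FPKM to 541, 257 and 472, a log2 difference of −1.62 ± 0.26 (limma adjusted *p* = 0.0018). The groups did not overlap in either medium. On WB they did, with 751, 763 and 955 FPKM at 12 h and 1059, 853 and 1023 at 24 h, and the change on WB differed from that on NC by 1.87 ± 0.32 on the log2 scale (limma interaction, adjusted *p* = 0.0005). At 24 h POX01075 was higher than on NC on MC (log2 difference 1.59 ± 0.25, limma adjusted *p* = 0.00059), HEC and WB.

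The citrate synthase POX04356 took another course. At 4 h it was at 463 ± 17.8 FPKM on AV, 419 ± 26.1 on HEC, 346 ± 10.9 on NC and 256 ± 21.9 on MC (SD, n = 3), and lower on WB and GLU, at 114 ± 16.5 and 113 ± 10.9. On GLU it went from 38.01, 37.1 and 31.97 FPKM at 12 h to 148, 107 and 106 at 24 h, a rise of 1.71 ± 0.16 on the log2 scale (SE; limma adjusted *p* = 0.0014). On WB it went the other way, from 256, 199 and 268 FPKM to 84.1, 82.9 and 89.0, a log2 difference of −1.48 ± 0.11 (limma adjusted *p* = 1.8e-05). Neither pair of groups overlapped. The score of this gene, 0.69, is near the end of the list and was set by GLU, where its FPKM at 48 h was 69.6 ± 1.15.

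Oxoglutarate dehydrogenase POX09663 varied less, from 330 to 464 FPKM in the 4 h means and from 151 to 249 in the 48 h means. Its fall between 12 and 24 h was called on AV, from 345, 417 and 490.1 FPKM to 173, 169 and 162, a log2 difference of −1.29 ± 0.16 (SE; limma adjusted *p* = 0.0011). On the other media the log2 differences were between −0.79 and −0.27 and no call was made. POX09664, the next number, is also a member and had similar steps, from 324 ± 71.9 to 126 ± 6.30 FPKM (SD, n = 3) on AV between 12 and 24 h. The plot of the TCA cycle members shows the 3 genes in all libraries.

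**Figure D5:**
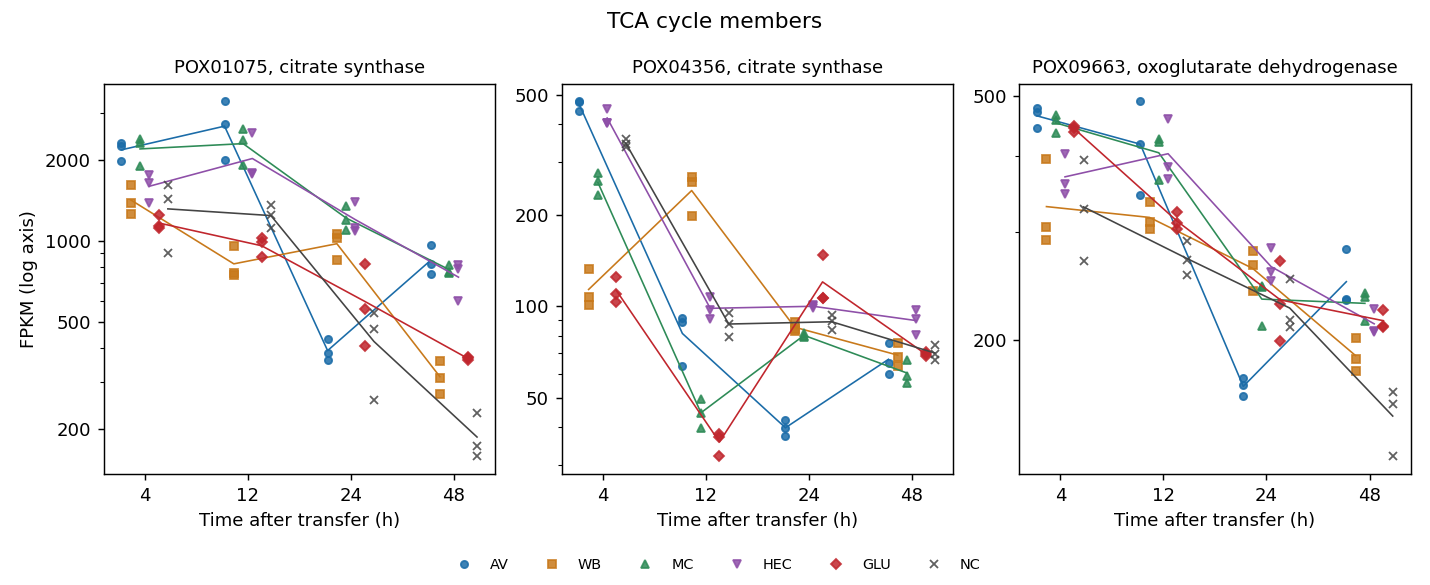
FPKM (log axis) of the citrate synthases POX01075 and POX04356 and of oxoglutarate dehydrogenase POX09663 in each library against time after transfer, drawn at equal steps; colours and symbols are media and lines join the means of 3 libraries. POX01075 dropped from 2006–3312 to 362–431 FPKM between 12 and 24 h on AV, and POX04356 rose from 31.97–38.01 to 106–148 FPKM on GLU.

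Not every member kept falling after 12 h. POX09786 and POX01554 led the rises on AV. POX09786 had 71.8, 21.7 and 20.9 FPKM at 12 h on AV and 265, 265 and 223 at 24 h, and POX01554 had 49.6, 32.3 and 34.6 and then 224, 307 and 377. The groups were apart in both genes, with log2 differences of 2.93 ± 0.44 (SE; limma adjusted *p* = 0.0019) and 2.92 ± 0.24 (limma adjusted *p* = 0.00036). By 48 h they were down to 79.4 ± 20.7 and 62.4 ± 11.4 FPKM on AV (SD, n = 3).

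POX07842 rose between 12 and 24 h on AV, HEC and NC, although it fell on GLU. On NC it had 5.72, 4.98 and 3.61 FPKM and then 13.8, 8.74 and 9.97, a log2 difference of 1.03 ± 0.20 (SE; limma adjusted *p* = 0.0044). On AV at 24 h it was at 162, 235 and 135 FPKM, 3.90 ± 0.22 above NC on the log2 scale (limma adjusted *p* = 9.1e-06). POX09284 and POX03973 rose on WB, POX09284 from 35.02, 16.2 and 41.8 to 77.8, 86.4 and 90.8 FPKM. POX04411 rose on NC, from 2.46 ± 0.0529 to 8.42 ± 0.364 FPKM, and POX04289 on GLU, from 26.2 ± 1.77 to 125 ± 37.96 FPKM (SD, n = 3).

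Whether the change between 12 and 24 h on a carbon source differed from that on NC was tested as an interaction. The change was more downward than on NC in 29 members on AV and more upward in 13, against 5.21% and 7.46% of all genes. On WB the counts were 22 and 18 (9.98% and 7.08% of all genes), on MC 15 and 2 (3.6% and 2.37%), on HEC 2 and 2 (1.24% and 1.08%) and on GLU 28 and 14 (7.69% and 7.87%). With rescaled libraries the share of upward calls went from 30.95% to 19.6% on AV, from 45% to 56.1% on WB and from 50% to 33.3% on HEC. Without replicate 3 of NC at 24 h the totals for AV, WB, MC, HEC and GLU were 36, 43, 16, 5 and 44, where all libraries gave 42, 40, 17, 4 and 42, against 12.7%, 17.1%, 5.97%, 2.32% and 15.6% of all genes, and without replicate 1 of AV at 12 h the AV total was 57. On HEC the total was 2 without replicate 2 of HEC at 24 h.

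The member with the lowest interaction *p* on WB was POX04411. It fell from 54.7 ± 9.41 to 2.57 ± 0.892 FPKM (SD, n = 3) on WB and rose on NC, a difference of −5.43 ± 0.25 on the log2 scale (SE; limma adjusted *p* = 1.1e-08). POX00882 on MC went from 128 ± 7.47 to 21.3 ± 2.73 FPKM while NC went from 33.4 ± 2.41 to 26.1 ± 2.80, an interaction of −2.18 ± 0.15 (limma adjusted *p* = 5.4e-06). POX03048 on AV went from 721 ± 93.9 to 100.3 ± 19.1 FPKM while NC went from 292 ± 18.9 to 207 ± 15.1, an interaction of −2.35 ± 0.21 (limma adjusted *p* = 9e-05). On HEC POX00022 had the lowest *p*, with 389 ± 47.5 and then 95.2 ± 4.58 FPKM against 450 ± 58.6 and 276 ± 66.1 on NC, an interaction of −1.29 ± 0.24 (limma adjusted *p* = 0.011).

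Some members lie next to each other by number. Of the 150, 21 have a member as neighbour in number, in 9 pairs and 1 run of 3, POX08620 to POX08622. Whether successive numbers are neighbours on the chromosome was not examined. The pairs include POX00022 and POX00023, POX06176 and POX06177, POX09663 and POX09664, and POX09676 and POX09677. Members of a pair did not always have like levels, as POX06176 was at 443–631 FPKM in the means at 48 h, when POX06177 was at 26.6–87.7.

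Genes of the published lists that were left out beforehand would also have reached the score of the last member in 18 cases, of which 11 are CAZymes, 5 transporters and 1 a TF. The highest were the FAD-linked oxidase POX01986, listed as a CAZyme, with a score of 3.55, the siderophore-iron transporter POX03709 with 2.73, POX09163, annotated as an efflux pump, with 2.59, the polygalacturonase POX07304 with 2.29 and the endoglucanase POX04137 with 1.81.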

How the data were processed

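The authors filtered BGISEQ-500 reads with SOAPnuke, aligned them with HISAT and Bowtie2 to strain HP7-1 and computed FPKM with RSEM; the submitters' processing notes name RSEM 1.2.12, Bowtie2 2.1.0 and BWA 0.7.10-r789. The deposited values are FPKM per gene and library, with no further scaling described and no counts used here, so depth per gene is unknown. A gene a library leaves out was set to 0.

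Replicate letters F, S and T were taken as 1, 2 and 3. For each comparison limma 3.58.1 (R 4.3.3, trend = TRUE) was run on log2(FPKM + 1) of the libraries compared, for the 8898 genes whose mean over 72 libraries reached 1 FPKM. Log2 differences on this scale understate changes of weak genes. All tests are two-sided, with Benjamini-Hochberg adjustment over all genes tested; calls need an adjusted *p* of at most 0.05 and a log2 difference of at least 1 in size. The fits comprised 6 comparisons of time, 10 with NC and 5 interactions, and the procedure was tested on simulated data. The authors' DESeq needs counts and was not used. The *p*-values set a difference of group means against the spread between replicate libraries. Tables were handled with Python 3.11.15, numpy 2.4.6 and pandas 2.3.3, and figures drawn with matplotlib 3.10.9.

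The members and lists were chosen with earlier results of these data known. Named genes are the 10 members with the highest score, the 5 with the highest mean FPKM at 4 h, the called members with the largest non-overlapping changes in each comparison (up to 2 each way over time, 1 each way against NC), the lowest interaction *p*, the 3 genes on each side of the threshold, annotated members, and the highest-scoring genes of the published lists. POX03322, POX08508, POX09676 and neighbours in number such as POX09664 and POX06176 are outside this rule. Lists by product name could not be applied, since no gene names matched the identifiers. Alternatives were a pseudocount of 0.1, no filter, rescaling by the median of ratios, all libraries in 1 fit, the replicate block, unadjusted *p*, no fold threshold, each library left out, and for membership also medians of replicates and list sizes of 100 and 200.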

Additional observations from a re-analysis of the deposited data

Results flagged for a closer look

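By the limma interaction, the change between 12 and 24 h differed from that on NC in 42 members for AV, 40 for WB, 17 for MC, 4 for HEC and 42 for GLU, where 12.7%, 17.1%, 5.97%, 2.32% and 15.6% of all genes did. The 4 members for HEC are a share of 2.72%, near that of all genes. In each of these, the member with the lowest *p* was POX03048 for AV (log2 interaction −2.35), POX04411 for WB (−5.43), POX00882 for MC (−2.18), POX00022 for HEC (−1.29) and POX07894 for GLU (−3.87). The 5 interactions share the NC libraries. The change on the carbon source was more downward than on NC in all 5 members, and POX04411 rose on NC.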

How the results depend on the processing

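Of the 150 members, 136 were kept with a pseudocount of 0.1, 135 with rescaled libraries, 136 with medians of replicates and 132–134 without replicate 1, 2 or 3. With no fold threshold, the members called between 12 and 24 h numbered 97 for AV, 93 for WB, 105 for MC, 88 for HEC, 94 for GLU and 90 for NC, against 63.6%, 60.2%, 49.1%, 29.7%, 45.6% and 49.8% of all genes. On AV and WB the members' shares, 66% and 63.3%, were then near these, but the directions differed. On AV 71 members were lower and 26 higher, where 876 and 4787 of the 8898 tested genes were. On WB 79 members were lower and 14 higher, where 2156 and 3203 of the tested genes were. Against NC the numbers were then 58, 108, 94, 70 and 114 for AV, WB, MC, HEC and GLU at 12 h (all genes 35.4%, 57.2%, 62.2%, 36.2% and 70.7%), and 85, 95, 98, 72 and 64 at 24 h (46.7%, 64.7%, 76.3%, 47.9% and 38.3%). On MC at 24 h the members' share, 66.7%, was below that of all genes. There, 64 members were higher than on NC and 34 lower, where 1623 and 5163 of the 8898 tested genes were. The members' shares were also near those of all genes on MC at 12 h (63.9%) and on WB and HEC at 24 h (64.6% and 49%). They were a little above those of all genes on AV at 12 h (39.5%) and on GLU at 12 h and 24 h (77.6% and 43.5%). In these comparisons too, more members were higher than lower, while more of all genes were lower than higher. The interactions became 84 for WB, 34 for MC, 18 for HEC and 67 for GLU (all genes 48.8%, 16.8%, 6.68% and 31.9%). These counts are larger because smaller differences are included. Rescaling gave 46 members on AV, 57 on MC and 20 on HEC against NC at 12 h, and 49 on MC and 33 on HEC at 24 h, with the shares of all genes given above, and the cause was not tested beyond the shift of the all-gene median given above. Unadjusted *p* gave 9 interactions on HEC, against 3.71% of all genes.

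Leaving out 1 library in turn gave 1–43 members on AV against NC at 12 h and 2–5 interactions on HEC. No filter, a pseudocount of 0.1 and all 72 libraries in 1 fit moved no count by more than 1.5 times. Of the values of named genes under all alternatives, 1225 stayed on the same side of the threshold, 35 passed it and 24 no longer did. Among values called as first fitted or under the alternative, 0 changed direction. The direction of values called in neither was not checked. Same-numbered replicates deviated together in all pairs in 1 of 16 comparisons, AV against NC at 12 h (*r* 0.64, 0.17 and 0.47). The mean *r* of the 16 was 0.061, so the numbers were not taken as pairs. With the replicate block, 32 members instead of 23 were called on AV against NC at 12 h, against 10.6% of all genes. The block gave 2 interactions on HEC, against 1.94% of all genes, and moved no other count by more than 1.5 times. Without counts, the depth behind weakly expressed members such as POX03322 is unknown.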
